A study of Mus musculus with 2 samples.

Results

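The 9 genes described here, Bcl11a, Klf1, Sox6, Zbtb7a, Myb, Nr2c1, Nr2c2, Mbd2 and Chd4, are regulators reported to act in the switch from embryonic to adult globin. They were chosen by name for that role and not by a rule on their values, though earlier results of these data were known. They are 9 of the 43346 mouse gene entries, of which 23500 had a TPM above 0 in at least 1 library. Their levels and transcript makeup were read in whole liver of healthy B6NCrl mouse embryos at embryonic day 12.5 (E12.5). The study holds 1 group of 2 total RNA libraries, each from a pool of embryos of both sexes: replicate 1 from 120 embryos and replicate 2 from 88. With 1 group there is no treatment, genotype or stage to compare, and the comparisons are between members, between the transcripts of a member, and between the pools.

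At this stage the mouse liver is the site of definitive erythropoiesis, while red cells made earlier in the yolk sac still circulate through it. Yolk sac cells transcribe the embryonic β-like genes Hbb-y and Hbb-bh1, and definitive cells transcribe mainly Hbb-bs and Hbb-bt. Bcl11a and Zbtb7a are zinc finger repressors of the embryonic or fetal genes, Sox6 is a partner repressor, Klf1 activates the adult β-globin genes and Bcl11a, Nr2c1 and Nr2c2 encode the orphan nuclear receptors TR2 and TR4, Mbd2 and Chd4 are parts of the NuRD chromatin remodelling complex, and Myb is a factor of dividing progenitors.

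The sequences below are the β-globin promoters, shown because most of the 9 proteins act on globin genes and letters reported as bound by them lie there. They are the 160 bases before the RefSeq start (GRCm38.p6, minus strand), Hbb-y from chr7:103853208-103853367, Hbb-bs from chr7:103827929-103828088 and Hbb-bt from chr7:103813924-103814083. Capitals mark matches on either strand to the 5 motifs named after the sequences. The MYB motif AACNG, also searched, is left in lower case because 74.2% of all promoters held it.
Hbb-y: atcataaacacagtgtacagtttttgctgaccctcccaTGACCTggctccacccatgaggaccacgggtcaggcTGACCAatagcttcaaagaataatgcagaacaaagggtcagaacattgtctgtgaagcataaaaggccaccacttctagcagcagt
Hbb-bs: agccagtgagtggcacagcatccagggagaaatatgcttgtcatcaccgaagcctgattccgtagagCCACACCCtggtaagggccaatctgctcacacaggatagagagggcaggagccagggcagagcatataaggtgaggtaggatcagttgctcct
Hbb-bt: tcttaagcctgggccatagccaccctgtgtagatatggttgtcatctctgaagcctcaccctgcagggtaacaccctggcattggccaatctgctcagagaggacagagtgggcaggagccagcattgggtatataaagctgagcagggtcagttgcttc
Letters were searched over 250 bases before the start on both strands. BCL11A is reported to bind TGACCA, and TR2 and TR4 to bind repeats of AGGTCA, so these motifs can overlap. KLF1 binds CCACACCC, the SOX6 family binds AACAAT, and GATA1, a partner of KLF1, binds AGATAA. Hbb-y held TGACCA at -86 to -81 and, on the other strand, AGGTCA at -122 to -117. Hbb-bs held CCACACCC at -93 to -86 and, before the stretch printed, AGATAA at -210 to -205. Hbb-bt held none of the 5 motifs. The MYB motif lay in all 3 promoters, in the printed stretches at -143 to -139 in Hbb-y, -11 to -7 in Hbb-bs and -10 to -6 in Hbb-bt. Of 32851 RefSeq promoters searched the same way, 11.4% held the BCL11A motif, 14.0% the TR2 and TR4 motif, 9.42% that of SOX6, 3.20% that of KLF1 and 9.99% that of GATA1. The promoters of 8 members were searched, Mbd2 being left out. Among them Zbtb7a held AGATAA at -116 to -111 and at -39 to -34, and Bcl11a, Klf1, Myb, Nr2c1 and Nr2c2 held none of the 5 motifs. Chd4 held AGATAA in 1 of its 2 RefSeq promoters, at -187 to -182. Sox6 has 6 promoters in the table: 1 held CCACACCC, AGATAA and AGGTCA, another AGGTCA, a further one 2 copies of AACAAT, and the other 3 none of the 5. A match is a description of letters and says nothing of binding in these livers.

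The libraries held 37562365 expected counts in replicate 1 and 34729954 in replicate 2, where an expected count is the estimated number of reads of a gene. TPM, the length-scaled abundance of a transcript in a library, is the scale used to compare genes. Over 12841 genes at a TPM of at least 1 in both libraries the median level was 12.7 TPM, and 68.5% of them differed by less than 1.1-fold between the pools. Both pools carried the tissue's defining markers: the 6 erythroid markers summed to 2702 TPM in replicate 1 and 2837 in replicate 2, and the 6 hepatoblast markers to 6771 and 6594. The 7 lymphoid markers summed to 9.45 TPM in replicate 1 and 7.61 in replicate 2, with Cd79b and Lck at 1 TPM or above in both and Cd3e at 0, and the 4 neural markers summed to 1.34 and 0.690 TPM. All values are from a mixed tissue, so fewer cells of a type and less RNA per cell cannot be told apart. The labels name separate pools of embryos under 1 donor entry, and the SD over 2 libraries is a spread between pools only.

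All 9 genes were at a TPM of at least 1 in both libraries, and 7 were at 10 or above. Beside this and the lists below, 12841 of the 23500 expressed genes were at a TPM of at least 1 in both. Their levels spanned 129-fold, from Klf1 down to Nr2c1, with a median of 20.1 TPM. In every one of the 8 neighbouring pairs of the order Klf1, Zbtb7a, Bcl11a, Chd4, Myb, Sox6, Mbd2, Nr2c2, Nr2c1, the lower library of the upper gene lay above the higher library of the lower gene. The closest neighbours were Myb and Sox6, 1.15-fold apart in replicate 1 and 1.13-fold in replicate 2. Klf1 stood furthest from its neighbour and held 70.0% of the members' summed TPM in replicate 1 and 68.0% in replicate 2. TPM depends on which transcript lengths a gene's reads were assigned to: with counts divided by the length of each gene's longest coding transcript instead, a choice made after the values were seen, Chd4 (23.4 ± 0.706 counts per kilobase, scaled to depth) moved above Bcl11a (20.3 ± 0.249; SD, n = 2) and no other pair changed order.

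**Figure D1:**
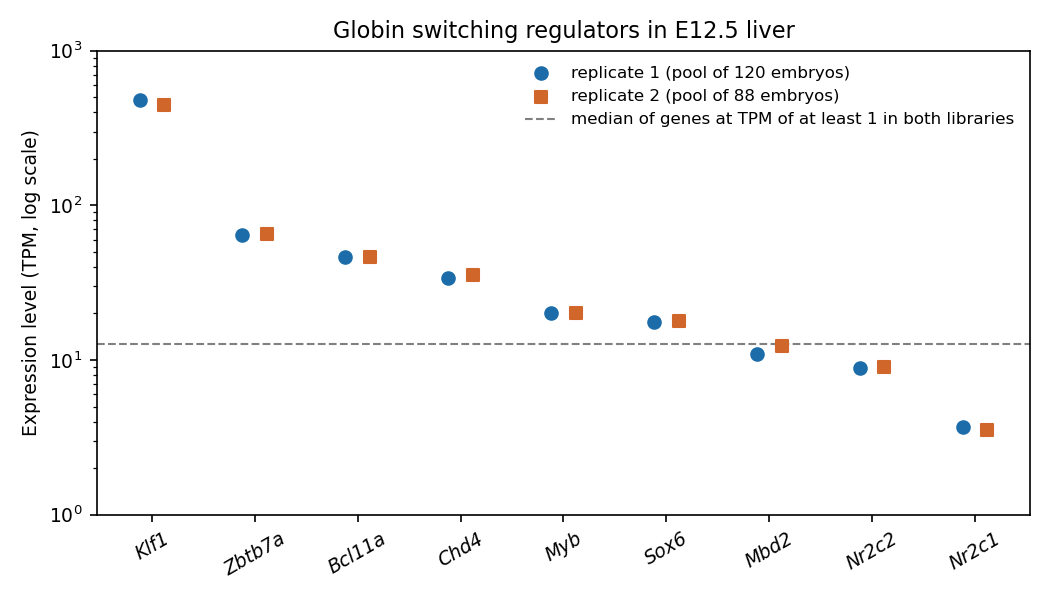
Level of each regulator in replicate 1 (circles) and replicate 2 (squares), in TPM on a log axis, ordered by mean, with the median of detected genes (12.7 TPM) as a dashed line. The pools lie close together for every gene, 6 genes lie above the line in both libraries, and Mbd2, Nr2c2 and Nr2c1 lie below it.

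Among the repressors, Bcl11a (ENSMUSG00000000861.11; chr11:24078056-24174123, plus strand, in the GENCODE M21 annotation of GRCm38) had 46.5 TPM in replicate 1 and 46.44 in replicate 2. That placed it at rank 2631 of the 23500 expressed genes. Its coding models, called here by the length of their coding sequence, differ mainly at the 3' part (the map of transcript models). The 2505-base form is the longest, the XL form of the protein, and ends in the long version of the fourth exon. The 2319-base form leaves that exon before its end for a last exon further on. The 573-base form, with its own first exon of 70 bases, and the 729-base form leave it far earlier. A retained intron model has no coding sequence.

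The sites where these models part are shown (GRCm38, chromosome 11, plus strand). Each is given as the last 30 shared bases in lower case and the next 30 bases of that model in capitals. The stretches of the 2505-base form run on within the fourth exon and are not junctions. The 729-base form has the same junction as the 573-base form. The 2319-base form also holds the early-site stretch of the 2505-base form. The first pair parts after chr11:24163259-24163288 and the other after chr11:24164859-24164888; the 573-base and 2319-base forms go on at the same acceptor, chr11:24172699-24172728.
Form of 2505 bases, early site: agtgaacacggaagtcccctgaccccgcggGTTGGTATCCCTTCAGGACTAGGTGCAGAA
Form of 573 bases: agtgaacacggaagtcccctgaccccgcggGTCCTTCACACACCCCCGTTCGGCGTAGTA
Form of 2505 bases, late site: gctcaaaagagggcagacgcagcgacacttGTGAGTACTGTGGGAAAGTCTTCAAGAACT
Form of 2319 bases: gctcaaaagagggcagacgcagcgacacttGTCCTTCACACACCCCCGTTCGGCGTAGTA
The share of the gene's TPM held by a transcript was read as the deposited isoform percentage. The 573-base form held 51.84% of Bcl11a TPM in replicate 1 and 50.66% in replicate 2. The 2505-base form held 19.12% in replicate 1 and 18.94% in replicate 2, and the 2319-base form 13.58% and 15.37% in the same order. By expected counts the order differed: the 2505-base form took 36.4% of the gene's counts in replicate 1 and 35.4% in replicate 2, the retained intron model 26.3% and 27.6%, and the 573-base form 23.5% and 22.6%. The leading transcript was the 573-base form by TPM and the 2505-base form by counts. The transcript of the 573-base form is 1505 bases long and 70 of them lie in no other Bcl11a model, while that of the 2505-base form is 5989 bases long with 3541 of its own. Most bases of the 573-base form are therefore shared with other models. The 729-base form had 39 expected counts in replicate 1 and 0 in replicate 2. Exons of the gene overlap an antisense gene, 4930538E20Rik, over 2.40% of their bases, at 0.82 TPM in replicate 1 and 0.18 in replicate 2.

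**Figure D2:**
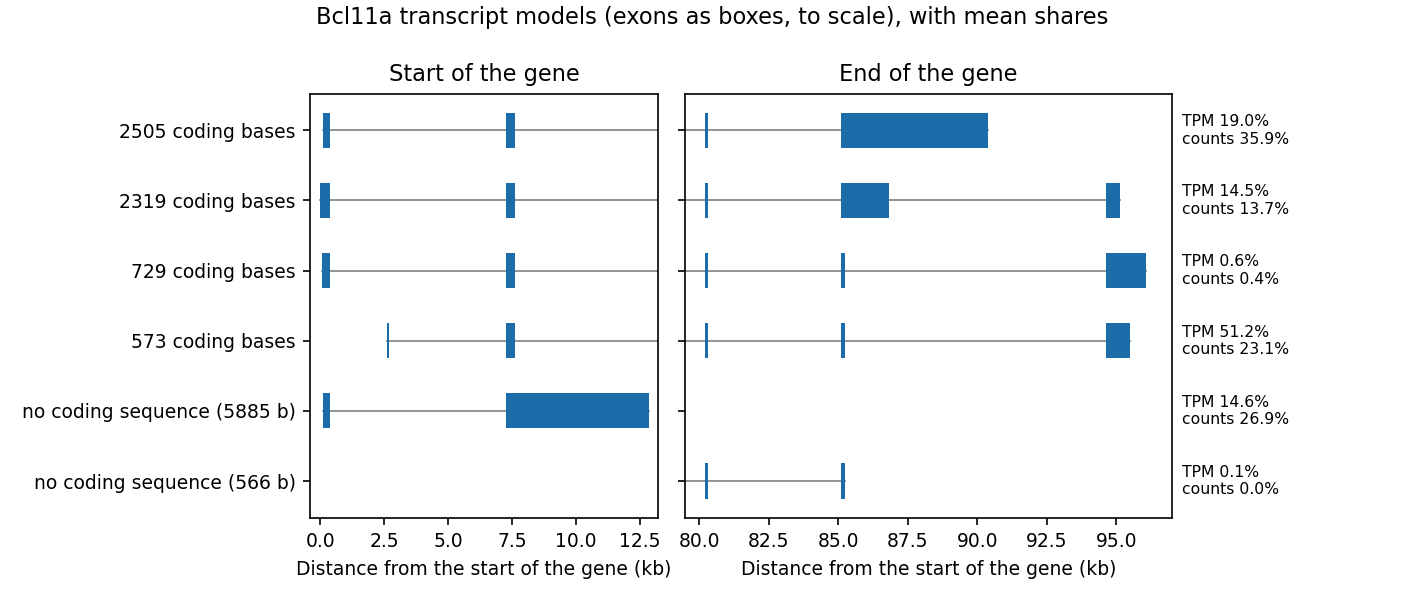
Exons (boxes) of the 6 annotated Bcl11a transcript models by distance from the gene's start in kilobases, with the middle of the gene left out between the panels and the mean share of TPM and of expected counts at the right. The 573-base form has the largest share by TPM (51.2%) and the 2505-base form the largest by counts (35.9%).

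Zbtb7a (ENSMUSG00000035011.11; chr10:81135220-81152995, plus strand), which encodes LRF, had 64.06 TPM in replicate 1 and 65.63 in replicate 2. It was 1.38-fold above Bcl11a in replicate 1 and 1.41-fold in replicate 2. Its leading transcript also differed by scale, a transcript of 1841 bases with 72.37% and 74.13% of TPM and one of 5938 bases with 51.9% and 50.9% of counts, in replicates 1 and 2. Both hold the same coding sequence of 1707 bases, and the 3 transcripts with that sequence took 98.4% of TPM in replicate 1 and 99.3% in replicate 2. The 1841-base transcript has 0 bases that no other model holds.

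Sox6 (ENSMUSG00000051910.9; chr7:115470872-116038796, minus strand), an HMG box factor that represses Hbb-y together with Bcl11a, had 17.54 TPM in replicate 1 and 17.81 in replicate 2. It stood at 0.380 ± 0.00446 of the Bcl11a level (SD, n = 2). Its models include or skip an in-frame exon of 123 bases (chr7:115579016-115579138). This is not their only difference: the coding sequence has 2481 bases with the exon and 2361 or 2355 without it. The junctions with and without that exon, formatted as above on the minus strand after chr7:115580565-115580594, read as follows.
Sox6, exon included: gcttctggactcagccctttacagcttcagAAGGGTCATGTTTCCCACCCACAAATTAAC
Sox6, exon skipped: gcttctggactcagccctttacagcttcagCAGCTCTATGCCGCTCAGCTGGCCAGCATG
Models with the exon held 68.9% of Sox6 TPM in replicate 1 and 65.2% in replicate 2, but 43.5% and 39.2% of its counts. The main transcript with the exon is 2825 bases long and the main one without it 8079, and they have 77 and 68 bases of their own. The leading form thus depends on the scale.

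Klf1 (ENSMUSG00000054191.7; chr8:84901928-84905291, plus strand), the erythroid Krüppel-like factor, had 479.15 TPM in replicate 1 and 447.89 in replicate 2, at rank 250 of the expressed genes. It was the one member with a single transcript model, so its level does not depend on how reads were divided among its own transcripts. Klf1 was 9.97 ± 0.467 times the level of Bcl11a and 7.48-fold above Zbtb7a in replicate 1 and 6.82-fold in replicate 2. Per length of the longest coding transcript, the alternative given above, Klf1 was 17.9 ± 1.06 times Bcl11a and 14.7 ± 0.894 times Zbtb7a (SD, n = 2). Its related factors Klf3, a repressor, and Klf2 were at 53.6 ± 2.46 and 5.10 ± 0.141 TPM (SD, n = 2).

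Myb (ENSMUSG00000019982.10; chr10:21124935-21160984, minus strand) had 20.09 TPM in replicate 1 and 20.08 in replicate 2. The 6 stem and progenitor markers ranged around it, from Flt3 at 2.42 ± 0.106 TPM to Cd34 at 23.9 ± 1.11 TPM, with a median of 17.4 TPM. The relative Mybl2, a factor of cycling cells, was at 63.6 ± 0.523 TPM (SD, n = 2). Myb has an optional in-frame exon of 357 bases (chr10:21144969-21145325), and the junctions with and without it, after chr10:21146186-21146215 on the minus strand, are given because this exon changes the protein.
Myb, exon included: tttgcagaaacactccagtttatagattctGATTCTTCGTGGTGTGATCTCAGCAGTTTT
Myb, exon skipped: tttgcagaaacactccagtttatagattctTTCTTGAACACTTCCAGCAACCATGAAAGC
The form with the exon held 70.8% of the TPM of Myb coding models in replicate 1 and 78.0% in replicate 2, and 75.1% and 81.5% of counts. Both scales put the longer form first in both libraries. The deposited models behind these shares differ in length from the GENCODE M21 models that gave the exon and junctions. The form with the exon has 3692 bases as deposited and 3693 in M21, and that without it 2995 and 3074. The antisense gene Gm26577 overlaps 11.8% of the exon bases and is listed at 0 in both libraries.

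The orphan receptors were the lowest of the 9. Nr2c2 (TR4; ENSMUSG00000005893.10; chr6:92091390-92174294, plus strand) had 8.87 TPM in replicate 1 and 9.04 in replicate 2. Nr2c1 (TR2; ENSMUSG00000005897.10; chr10:94148023-94197211, plus strand) had 3.66 TPM in replicate 1 and 3.52 in replicate 2. By TPM of the whole gene, Nr2c2 was 2.50 ± 0.102 times Nr2c1 (SD, n = 2), and the libraries of the genes did not overlap. Per length of the longest coding transcript the fold was smaller. Nr2c2 then had 4.28 ± 0.163 and Nr2c1 2.53 ± 0.0802 counts per kilobase, scaled to depth (SD, n = 2). The 3 Nr2c1 models share 1 coding sequence of 1770 bases. For Nr2c2 the main coding model, of 7647 bases, held 44.13% of TPM in replicate 1 and 48.17% in replicate 2, but 77.8% and 82.1% of counts. The rest of its TPM lay mainly in an incomplete model of 1065 bases and in a model of 2811 bases annotated for nonsense-mediated decay. Complete coding models held 49.7% of Nr2c2 TPM in replicate 1 and 52.3% in replicate 2, while all Nr2c1 TPM lay in such models. The ratio by TPM of the whole gene is therefore not a ratio of coding transcripts. The last exon of the main Nr2c2 model runs into exons of Mrps25 on the opposite strand, which cover 46.2% of that model's bases. Mrps25, a mitochondrial ribosomal protein gene, had 60.44 TPM in replicate 1 and 61.26 in replicate 2. The labels do not say whether the libraries keep strand, so reads of the 2 genes there cannot be told apart and the level of Nr2c2 and its ratio to Nr2c1 are uncertain.

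TR2 and TR4 are reported to repress as a complex with corepressors, and its 9 listed genes, Nr2c1 and Nr2c2 among them, were all at 1 TPM or above in both libraries. Their median was 27.5 TPM. Trim28 stood at 177 ± 2.40, Hdac1 at 124 ± 3.83, Hdac2 at 93.3 ± 4.48 and Dnmt1 at 74.5 ± 2.02 TPM (SD, n = 2). Nr2c1 was the lowest of the list and Nr2c2 the third lowest, with Rcor1 (8.19 ± 1.16 TPM) between them.

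Mbd2 and Chd4 belong to NuRD, in which Mbd2 or its relative Mbd3 binds and a CHD family ATPase moves nucleosomes. Mbd2 (ENSMUSG00000024513.12; chr18:70568189-70626131, plus strand) had 10.93 TPM in replicate 1 and 12.33 in replicate 2. Mbd3 was 11.1-fold higher than Mbd2 in replicate 1 and 9.42-fold in replicate 2. Chd4 (ENSMUSG00000063870.8; chr6:125095981-125130591, plus strand) had 33.89 TPM in replicate 1 and 35.68 in replicate 2. Chd4 was 8.37-fold above Chd3 in replicate 1 and 6.49-fold in replicate 2, and Chd5 was near 0 with 3 and 4 expected counts. Of the 15 NuRD genes, 14 were at 1 TPM or above in both libraries, Chd5 being the exception, with a median of 55.5 TPM. The histone-binding subunits Rbbp4 (258 ± 8.14 TPM) and Rbbp7 (253 ± 3.46) were the highest, followed by the deacetylase Hdac1 (124 ± 3.83) and by Mta2 (120.4 ± 1.53; SD, n = 2). Mbd2 ranked among the lower subunits, above Mta1, Chd3, Gatad2b and Chd5.

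**Figure D3:**
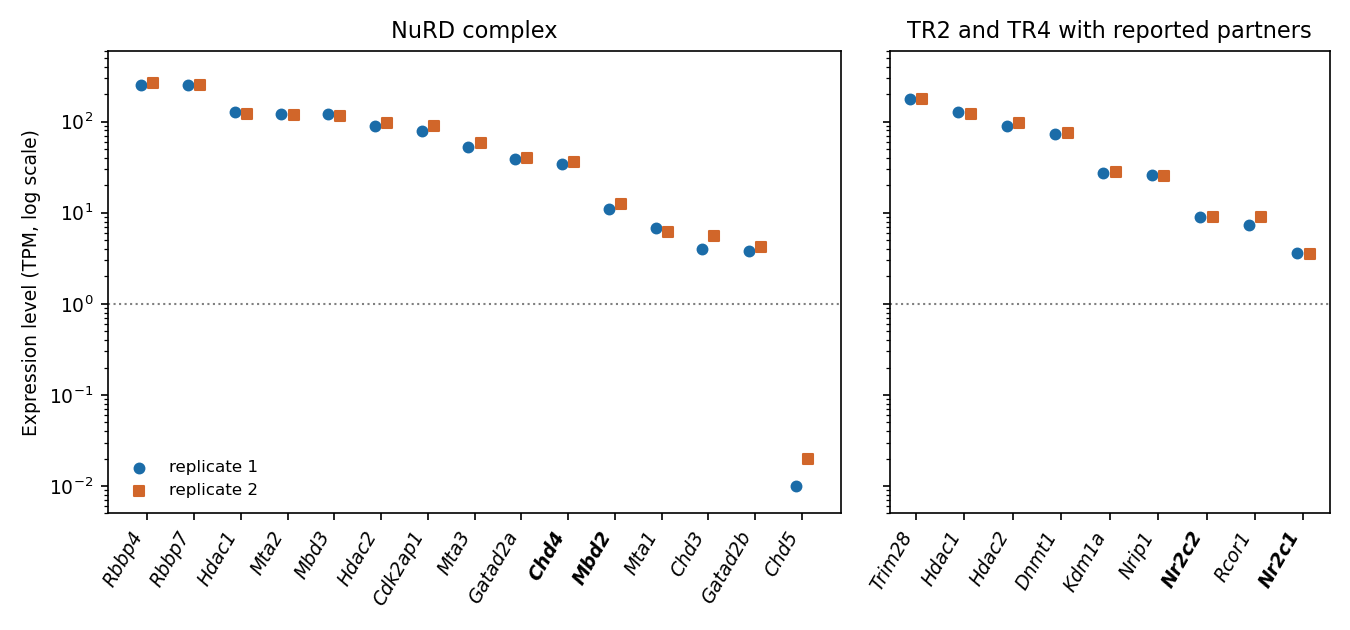
TPM on a log axis of the 15 NuRD genes (left) and of TR2, TR4 and their reported partners (right) in replicate 1 (circles) and replicate 2 (squares), with the members in bold and a dotted line at 1 TPM. Mbd2 lies about 10.3-fold below Mbd3, and Nr2c1 is the lowest of the right panel.

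The main Mbd2 model, of 1953 bases, held 69.51% of its TPM in replicate 1 and 71.97% in replicate 2, and 91.1% and 90.9% of counts. Most of the rest by TPM was a retained intron model of 494 bases. For Chd4, 3 coding models took 97.8% of counts in replicate 1 and 97.3% in replicate 2, led by transcripts of 6537 bases (50.3% and 48.6%) and 6652 bases (40.1% and 48.7%). The 6652-base transcript and the third, of 6697 bases, have 0 bases of their own, and the third had 449 expected counts in replicate 1 and 0 in replicate 2.

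Across the 9 genes the 42 transcript models include 26 complete coding models with 20 distinct coding sequences. On the mean of the replicates, the leading model by TPM differed from the leading model by counts for 3 of the 9 genes, Bcl11a, Sox6 and Zbtb7a. In replicate 2 alone Chd4 was a further one, with the 6537-base transcript first by TPM (38.72% against 38.12%) and the 6652-base transcript first by counts (48.7% against 48.6%). In each of these cases the TPM leader was the shorter of the competing models, which follows from the division of counts by length.

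**Figure D4:**
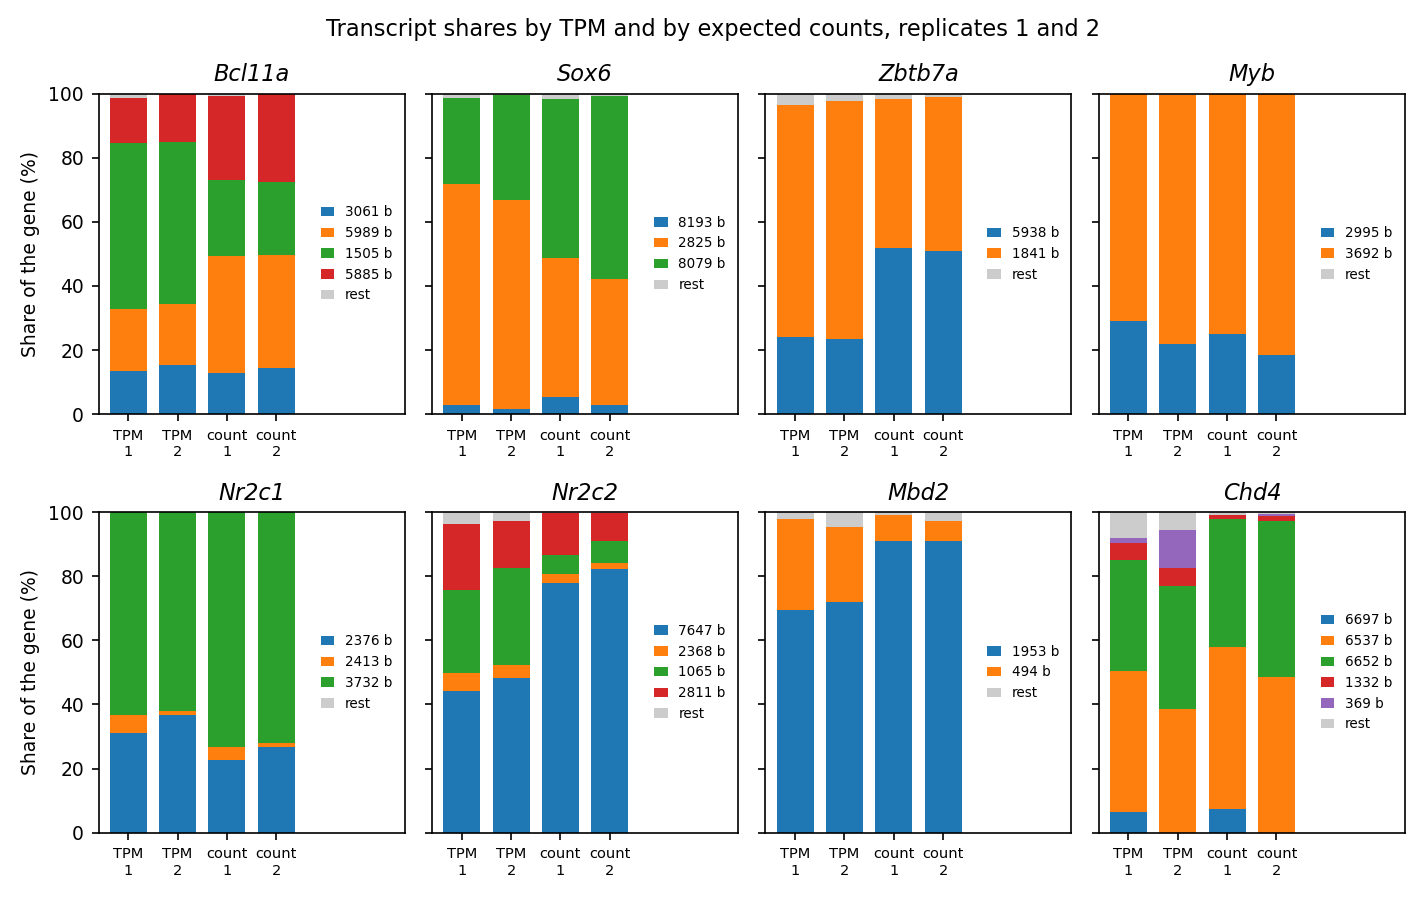
Share of each gene in percent held by its transcript models, by TPM and by expected counts, in replicates 1 and 2, for the 8 members with more than 1 model; models are named by transcript length in bases (b), and those under 5% on every bar are pooled as rest. By TPM the 369-base model of Chd4 has 1.51% in replicate 1 and 11.77% in replicate 2, on 4 and 33 expected counts. Its posterior mean shares are 4.89% and 12.2%. The leading model changes between scales in Bcl11a, Sox6 and Zbtb7a in both replicates and, narrowly, in Chd4 in replicate 2.

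Between the pools 0 of the 9 members differed by 25% or more of the lower value (0.32 on the log2 scale). Over 13017 genes averaging 50 expected counts or more, 8.68% did, 3.76% higher and 4.92% lower in replicate 1. With a minimum of 500, met by every member but Nr2c1, the share was 1.31%. The 0 of 9 therefore does not set the members apart from genes of like counts. By TPM, 4 members were higher and 5 lower in replicate 1, though of the 4, Bcl11a and Myb had a ratio of 1.00. With TMM scaling of the counts these numbers were 3 and 6. They were 8 and 1 with spike-in centring, which adds 0.12 on the log2 scale to the median gene. Exact 95% intervals on the ratio, which cover counting error only, left out 1 for Klf1 and Chd4. The Klf1 ratio was 1.07 (1.05 to 1.09), and 44.2% of detected genes differed by more than that. The furthest from 1 was Mbd2, the member with the second fewest counts (487 in replicate 1 and 527 in replicate 2), at 0.886 with an interval of 0.782 to 1.00. No replicate exists within a pool, so no test of these ratios is possible.

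Chd4 had a ratio of 0.950 (0.915 to 0.986) by TPM, but 1.04 by CPM (expected counts scaled to library total), from 160.2 CPM in replicate 1 and 154 in replicate 2. Its effective length, the mean length over which its reads were scaled, was 5642 bases in replicate 1 and 5130 in replicate 2. A retained intron model of 369 bases took 1.51% of Chd4 TPM in replicate 1 and 11.77% in replicate 2, on 4 and 33 expected counts out of 6019 and 5333. By the deposited posterior mean its shares were 4.89% and 12.2%, and its deposited TPM bounds overlap between replicates. The deposited TPM bounds of the whole gene overlap as well. For Bcl11a and Myb the ratios by counts were 0.983 and 0.986 against 1.00 by TPM, so TPM gives them no clear direction between the pools. The 5 megakaryocyte markers summed to 837 TPM in replicate 1 and 732 in replicate 2, and the 5 granulocyte markers to 577 and 663. Their part in the members' ratios was not tested.

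**Figure D5:**
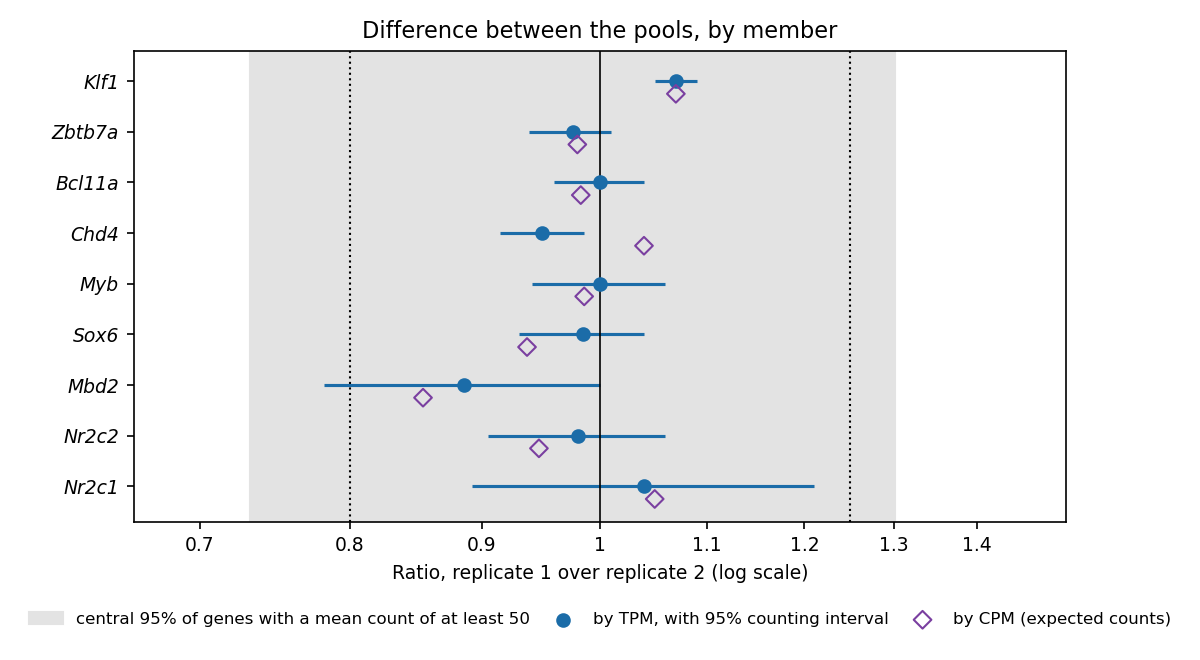
Ratio of replicate 1 to replicate 2 on a log axis for each member, by TPM with its 95% counting interval (filled points and lines) and by CPM (open diamonds), with dotted lines at 25% of the lower value either way and the central 95% of genes shaded. All 9 TPM ratios lie inside the dotted lines, and Chd4 lies on different sides of 1 by the 2 scales.

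The globin genes on which these regulators act were abundant in both pools. Adult Hbb-bs had 46192.13 TPM in replicate 1 and 48427.0 in replicate 2, and embryonic Hbb-y had 8214.89 and 8972.65. Hbb-bh2 was under 1 TPM in replicate 1 (0.46) and at 1.19 in replicate 2. Of 27 other reported globin regulators, all were at 1 TPM or above in both libraries, with a median of 31.1 TPM. Among all 23500 expressed genes 12841 were. Sub1 was the highest at 403 ± 0.990 TPM, followed by Lmo2 (166 ± 3.42), Nfe2 (146 ± 0.247) and Gata1 (132 ± 4.77; SD, n = 2). Klf1 lay above all 27. Lin28a, known for fetal programmes of blood cells, was the 1 gene of the 27 past the 25% mark by TPM. Over all genes tested, 8.68% were. Lin28a had 5.05 TPM in replicate 1 and 3.63 in replicate 2. By expected counts, 393 in replicate 1, the deeper library, and 319 in replicate 2, it was not past the mark.

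Of 18 paralogs of the members, 14 were at 1 TPM or above in both libraries, with a median of 4.94 TPM. Bcl11b, Zbtb7c, Mybl1 and Chd5 were not. Of the 15 that averaged 50 expected counts or more, 2 were past the 25% mark by TPM higher in replicate 1 (Zbtb7b and Zbtb7c). Chd3, also the 1 NuRD gene past it, was lower. Over all genes tested, 8.68% were past it. Expected counts in replicates 1 and 2 were few for Zbtb7b (129 and 88) and Zbtb7c (74 and 53). For Chd3 they were 470 and 517, which scaled to depth is not past the mark. Mybl1, with 0.61 TPM in replicate 1 and 0.4 in replicate 2, fell under that count minimum. For Bcl11a the relative Bcl11b was at 0.26 TPM in replicate 1 and 0.27 in replicate 2. For Mbd2 and Myb the relatives Mbd3 and Mybl2 were the more abundant, and Nr2f6, an orphan receptor of the same subfamily, was at 32.1 ± 2.15 TPM (SD, n = 2), above both Nr2c1 and Nr2c2. Likeness of pattern between genes cannot be computed over 2 libraries.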

How the data were processed

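The authors deposited 1 gene table and 1 transcript table per library, on assembly mm10 with genome annotation M4 per the file headers deposited with them; the sources used here name neither aligner nor quantifier. Ambion mirVana RNA was used per the labels' protocols, and libraries started from 10 ng of RNA sized above 200, with spike-ins, and a SMARTer low-input manual is linked. The deposited expected counts are estimated and not normalized. The deposited TPM and FPKM values are scaled by length and depth, spike-ins included. The deposited percent columns give each transcript's share of its gene's TPM. The deposited credible bounds, listed as other values, state no level and are not printed.

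Symbols matched 42462 of 43346 gene entries. Exons and junctions come from GENCODE M21 transcripts, in which 38 of the 42 member models have the deposited length, and promoters from RefSeq. A gene passed between pools at a difference of 25% of the lower value on log2(TPM + 0.1), among those averaging 50 expected counts or more. Counts were scaled with edgeR 4.0.16 and DESeq2 1.42.0 as alternatives only, in R 4.3.3; the rest used Python 3.11.15, pandas 2.3.3 and SciPy 1.17.1. The counting of genes past the fold was tried on simulated counts, with changes larger than 25% and a minimum mean count of 500. Changes near 25%, the minimum of 50 and differences between real pools were not tried. Named were the 9 members and, of each list, up to 4 genes of highest mean TPM and any under 1 TPM, plus others named beside a member after their values were seen. Members and lists were chosen with earlier results of these data known. With 1 group, no test was run. An expected count of 3, the floor used, was at most 0.0718 TPM for any member.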

Additional observations from a re-analysis of the deposited data

How the results depend on the processing

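The order of the 9 members and the absence of any past a 25% difference held by FPKM, by posterior mean, without spike-ins, under each count scaling and pseudocount and without either replicate where these apply. Counted per kilobase of the longest coding model, an alternative added after the data were seen, 1 pair changed order. The leading transcript was the same for all 9 without either replicate, by recomputed shares and by posterior means, and for 6 of 9 by mean share of expected counts. The 1130 genes past a 25% difference, 8.68% of those tested, became 2718 (16.8%) with a mean count of at least 10 and 110 (1.31%) with at least 500. They became 7428 (31.6%) with no filter and 541 (4.16%) with a pseudocount of 1. The filters change which genes are counted. Of the calls, 43.3% were higher in replicate 1, and 76.0% under spike-in centring. TMM gave 964 and spike-in centring 1277. The 71 list entries at 1 TPM or above were 75 at 0.1 TPM and 58 at 5 TPM. Of 170 single values recomputed, 142 stayed within their spread and 28 moved by more. Most of the 28 were levels rescaled without spike-ins or shares by counts. With 2 libraries, leaving 1 out always keeps a mean within its SD, so those values could not move. Ratios between genes by FPKM and shares recomputed from TPM repeat the same quantity. The 142 is therefore not a measure of stability. Ratios between pools cannot be formed without either replicate. No paired analysis was possible because there is 1 group. Precision is limited by 2 libraries, by shared bases among models, by unstated strandedness at Nr2c2 and, for Nr2c1 and Mbd2, by counts of 320 to 527.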
